A study of Homo sapiens with 4 samples.

Results

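The genes described here were the nuclear-encoded subunits of the mitochondrial respiratory chain and ATP synthase. They were taken by symbol, from the prefixes NDUFA, NDUFB, NDUFC, NDUFS, NDUFV, UQCR, COX4I, COX5, COX6, COX7, COX8, ATP5F1, ATP5M and ATP5P together with *SDHA*, *SDHB*, *SDHC*, *SDHD* and *CYC1*, leaving out the NDUFAF assembly factors and everything that is not protein-coding. Of 88 such genes, 83 had a row among the 46660 gene identifiers of the table, namely 38 of complex I, 4 of complex II, 10 of complex III, 12 of 17 of complex IV and 19 of ATP synthase. *COX4I2*, *COX6A2*, *COX7A1*, *COX7B2* and *COX8C* are not analysed here, nor are the 13 subunits encoded by mitochondrial DNA. *ATP5MGL*, *UQCRHL* and *COX6B2* never exceeded 8 counts in a library, which left 80 genes for the comparisons. *ATP5MF-PTCD1* and *NDUFC2-KCTD14* among these 80 are read-through genes that run into the next gene and share exons with *ATP5MF* and *NDUFC2*.

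RNA was sequenced from U87MG and U251MG, both established human glioblastoma cell lines, with and without knockdown of *FLI1*, an ETS-family transcription factor. Knockdown cells carried a lentiviral pGreen vector with shRNAs against *FLI1*, and control cells carried the empty pGreen vector. Cells of both arms were infected in the presence of polybrene and selected with puromycin as mixed stable pools, so each arm had been through infection and selection. The titles call the controls shControl while their treatment label names an empty vector, and whether they expressed a control shRNA is not settled by the labels. There was 1 library for each arm of each line, 4 in all, and the question put to the genes here was whether their RNA differed between the arms and between the lines.

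Electrons from NADH enter the respiratory chain at complex I and those from succinate at complex II. They pass through ubiquinone to complex III and by cytochrome c to complex IV, where oxygen is reduced, and the protons pumped at complexes I, III and IV drive ATP synthase. Most subunits are encoded in the nucleus and imported, while a few core subunits of complexes I, III, IV and ATP synthase come from mitochondrial DNA. Glioblastoma cells are known for high glycolysis, but many still respire.

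The libraries held between 12229780 and 28891055 estimated counts, and in each line the shFLI1 library was the deeper, by 1.74 times in U87MG and 1.60 times in U251MG. The respiratory chain genes took 0.663 to 0.720% of all counts. *FLI1* itself fell from 107 to 52 counts in U87MG and from 216 to 111 in U251MG, or from 9.34 to 2.34 and from 12.1 to 3.71 CPM (gene counts relative to library size, with library sizes adjusted by the trimmed mean of M-values, TMM), leaving 25.02 and 30.59% of the control level. The glial and glioblastoma genes *GFAP*, *VIM*, *NES*, *SOX2* and *EGFR* had counts in each library, *S100B* was low with 1 to 11 counts and *CHI3L1* had no count in either U251MG library, and the blood and epithelial markers with a row stayed at 5 counts or fewer. *GFAP*, the intermediate filament of astrocytes, went from 634 to 1587 CPM with the knockdown in U87MG and from 20.4 to 93.8 in U251MG (edgeR adjusted p = 0.0152 over both lines), *NES* from 199 to 283 and from 393 to 637 (edgeR adjusted p = 0.114) and *SOX2* from 117 to 158 and from 140 to 174 (edgeR adjusted p = 0.239). The part of these glial markers in the values below was not tested. Since each arm of a line is 1 library, a fold change within a line has no replicate check, and the 95% Clopper-Pearson intervals given below cover counting error only, which is a minimum because PCR reads are not independent molecules. In bulk RNA, fewer cells of one kind and less RNA per cell cannot be told apart.

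RNA levels per length set the complexes apart before any comparison of arms. The subunits of complex IV had the highest median FPKM (fragments scaled by transcript length and library depth) in each of the 4 libraries, 329 to 343, against 132 to 157 for complex III, 104 to 139 for ATP synthase, 85.7 to 116 for complex I and 56.8 to 69.9 for complex II. FPKM divided by an effective length that for short RNAs was much below the full transcript. With CPM per kilobase of the full canonical transcript instead, the complex IV median was 207 to 232, and every other complex had a median between 50.6 and 93.4 in every library. *COX6A1*, the liver-type form of a nuclear complex IV subunit, had the highest mean of the 2 controls in its complex on both scales, with 347 CPM per kilobase in the U87MG control and 503 in the U251MG control, although in the U87MG control *COX8A* was above it with 362. By the same mean *NDUFA13*, a complex I subunit also known as GRIM-19, came first in complex I on both scales, while by FPKM *NDUFA1* was above it in both U87MG libraries. *CYC1*, the cytochrome c1 of complex III, had the highest control mean in complex III through its U87MG level of 333 CPM per kilobase, and in the U251MG control it had 127, below *UQCRH* with 153 and *UQCRC1* with 133. In ATP synthase the 2 scales gave different orders. *ATP5ME*, the e subunit with a 303-base transcript, was first by control mean FPKM but at rank 4 by CPM per kilobase, where *ATP5F1B*, the catalytic beta subunit, was first.

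**Figure D1:**
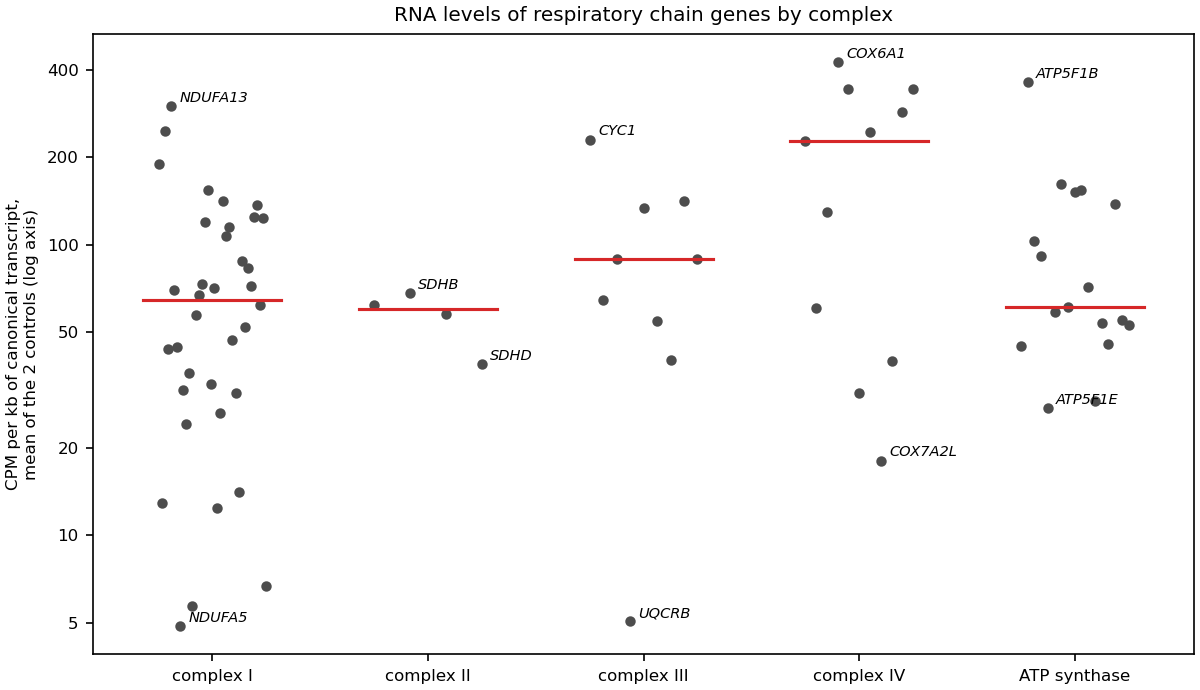
RNA level of each respiratory chain gene, as the mean CPM per kilobase of canonical transcript of the 2 control libraries (log axis), grouped by complex, with a red bar at the median of the genes drawn. Complex IV holds the highest gene, *COX6A1*, and the highest median, while the lowest points of complexes I and III include genes with long transcript models such as *NDUFA5* and *UQCRB*.

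The 4 subunits of succinate dehydrogenase (complex II) lay close together. *SDHB*, the iron-sulfur subunit, had FPKM of 101 and 93.4 in U87MG control and shFLI1 and 74.2 and 76.7 in U251MG, and *SDHA*, the flavoprotein, had 70.1, 68.7, 63.1 and 63.2 in the same order. *SDHC*, one of the membrane anchors, had 39.0 and 40.5 in U87MG and 74.97 and 77.95 in U251MG, and the other anchor, *SDHD*, had 46.5, 44.9, 47.3 and 46.6. By FPKM *SDHC* was thus the lowest of the 4 in U87MG and level with *SDHB* in U251MG. The order depended on the scale, since by CPM per kilobase *SDHD* was the lowest in U87MG, with 39.6 and 34.4 against 41.7 and 40.5 for *SDHC*, and *SDHC* was above *SDHB* in U251MG, with 73.5 and 78.9 against 55.8 and 54.3. At the other end of the chain, the ubiquitous forms of the paired complex IV subunits made nearly all the RNA that could be compared: *COX6B2*, known from testis, was at most 0.04% of the *COX6B1* and *COX6B2* sum, and *COX7A2L*, a factor of supercomplex assembly, was 5.40 to 7.43% of its sum with *COX7A2*. *UQCRHL*, a copy of *UQCRH* that may share reads with it, was at most 0.09% of that pair.

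The proton-carrying c ring of ATP synthase is made of 1 mature protein encoded by *ATP5MC1*, *ATP5MC2* and *ATP5MC3*. *ATP5MC2* gave 57.8 to 62.9% of their summed FPKM, *ATP5MC1* 21.3 to 30.3% and *ATP5MC3* 11.03 to 18.9%. *ATP5MC2* was the main source in each library, and the order of the other two depended on the scale, since by CPM per kilobase *ATP5MC1* gave 16.8 to 25.2% and *ATP5MC3* 16.6 to 26.6%.

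Over both lines, 1 of the 80 genes was lower after *FLI1* knockdown and none was higher, beside 2.25% of 16821 genes tested that were called in either direction, 1.60% lower and 0.654% higher. A share this small among the members lies near that background. The test was edgeR's quasi-likelihood test, blocked on cell line, with Benjamini-Hochberg adjustment over all 16821 genes, so the lines served as the replicates with 1 residual degree of freedom. At an unadjusted p under 0.05 there were 4 members.

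The gene called was *ATP5F1C*, the gamma subunit, which is the rotating stalk that couples the c ring to the catalytic head. Its counts were 1063 and 1278 in U87MG control and shFLI1 and 2383 and 2496 in U251MG control and shFLI1, which at these depths are 92.8, 57.5, 134 and 83.4 CPM. Both knockdown libraries were below both controls. *ATP5F1C* was picked by the test for the knockdown, so this separation adds no support. Its share over all genes was not counted. The log2 fold change of *ATP5F1C* was -0.69 in U87MG (95% counting interval -0.81 to -0.57) and -0.68 in U251MG (-0.76 to -0.60), and -0.69 for both together (edgeR adjusted p = 0.0461). The adjusted p lay close to the threshold and ranged from 0.00127 to 1.00 over 11 other ways of processing, 7 of which stayed below 0.05. One RNA model carried 89.9 to 95.7% of the counts of *ATP5F1C* in every library, with 92.0 and 94.9% in U87MG control and shFLI1 and 89.9 and 95.7% in U251MG. The other subunits of the catalytic head had values nearer to 0. *ATP5F1A*, the alpha subunit, had log2 fold changes of -0.23 and 0.10 in U87MG and U251MG, *ATP5F1B* had -0.19 and 0.08, *ATP5F1D* (delta) -0.02 and 0.19, and *ATP5F1E* (epsilon) -0.07 and 0.10.

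The next genes by p missed the threshold. *NDUFS8*, an iron-sulfur subunit of complex I, had 105 and 71.6 CPM in U87MG control and shFLI1 and 96.1 and 70.1 in U251MG, so that both knockdown libraries were again below both controls. The share of all genes separated in this way was not counted. The log2 fold changes of *NDUFS8* were -0.55 and -0.46 (edgeR adjusted p = 0.115 over both lines). *ATP5MK*, a small membrane subunit of ATP synthase, had 27.0 and 19.8 CPM in U87MG and 43.98 and 30.5 in U251MG, lower with the knockdown in each line but overlapping over the lines (log2 fold changes -0.45 and -0.53, edgeR adjusted p = 0.158). *NDUFB9*, an accessory subunit of complex I, pointed the other way with 112 and 172 CPM in U87MG and 46.8 and 57.0 in U251MG (log2 fold changes 0.62 and 0.28, edgeR adjusted p = 0.184).

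**Figure D2:**
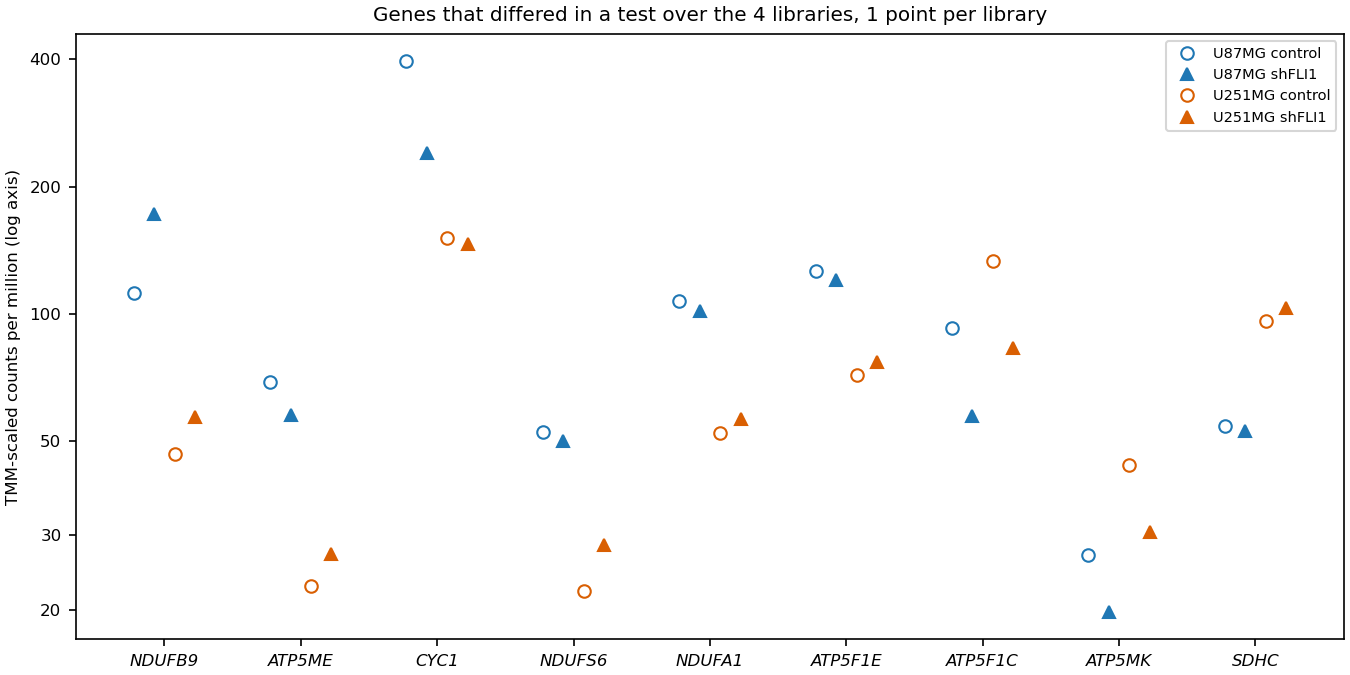
TMM-scaled CPM on a log axis of the genes that differed in a test over the 4 libraries, with 1 point for each library, open circles for control and filled triangles for shFLI1. *ATP5F1C* is the gene with both triangles below both circles, whereas genes such as *SDHC* and *NDUFB9* separate by cell line.

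Promoter letters are shown for the genes called that held them, because FLI1 belongs to the ETS family and ETS factors and NRF1 are textbook regulators of respiratory chain genes. RefSeq promoter windows (GRCh38.p14), from 250 bases before to 50 bases after a transcription start, were found for 70 of the 88 genes, 83 windows in all. The ETS-type letters CCGGAAG, searched on both strands, were in 22 of the 83 windows (26.5%), in 10.3% of 35116 promoters of all genes and in 12.8% of 22199 promoters of protein-coding genes. The NRF1-type letters, a palindrome of 10 bases that stands in capitals in the first line below, were in 4.82% of the member windows, 1.24% of all and 1.5% of protein-coding promoters. The *ATP5F1C* window held the NRF1-type letters and no ETS-type letters. In the lines below, capitals mark the letters searched for, and CTTCCGG is the ETS-type sequence read on the other strand. For *ATP5MK* the match that begins at -3 from the start is shown, and others that begin at -163 and -160 are not.
ATP5F1C, chr10:7788145-7788174, plus strand: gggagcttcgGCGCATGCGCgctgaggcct
ATP5MK, chr10:103396460-103396489, minus strand: ggaggtggcttCTTCCGGccgggccgagag
ATP5ME, chr4:674255-674284, minus strand: tgcaggttgtgCTTCCGGtgcggaggtcag
NDUFA1, chrX:119871774-119871803, plus strand: ttccgtcgcttCTTCCGGagccgtacgtgg
For the 21 genes with ETS-type letters the fold changes had medians, in log2 units, of -0.24 (U87MG) and -0.10 (U251MG), and for the 45 fitted genes whose windows lacked the letters these were -0.11 and 0.08. A match to these letters describes the sequence and says nothing of binding.

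Within a line, none of the 80 genes changed by more than 2-fold, while 14.5% of 17355 genes with at least 10 counts did so in U87MG and 9.76% of 18222 in U251MG. Among genes with at least 100 counts, which most of the 80 genes reached, these shares were 4.88 and 3.30%. At 1.5-fold, U87MG had *ATP5F1C* and *CYC1* lower and *NDUFB9* higher, beside 28.5% of all genes (9.92% lower and 18.6% higher), and U251MG had only *ATP5F1C*, which was lower, beside 21.9% (8.85% lower). Within each line the changes were thus small.

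In U87MG, 67 of the 80 genes had a log2 fold change below 0, with a median of -0.16, and 45 had a counting interval wholly below 0 against 3 wholly above. Of all 17355 genes, 4048 had an interval wholly below 0 and 4640 wholly above. Of 9772 genes with at least 100 counts in every library, these were 3217 and 2873. The median of all genes was 0.06, and 73 of the 80 lay below it. In U251MG, 33 of the 80 genes were below 0, the median was 0.06, and 20 intervals lay wholly below 0 against 31 wholly above. Of all 18222 genes there, 4214 had an interval wholly below 0 and 4490 wholly above. Among the 9772 genes these were 3178 and 3046. The median of all genes there was 0.04, and 38 of the 80 lay below it, while for the 9772 genes the U251MG median was -0.006. The sign in U87MG depended on the scaling, because scaling by total counts put 40 of 80 below 0 and moved the median of all genes by 0.16, to 0.22, but 73 still lay below that median. By FPKM 45 of 80 lay below 0 and 65 to 72 below the median of all genes. The summed CPM of all 83 genes was 12.6% lower with the knockdown in U87MG and 0.80% higher in U251MG.

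**Figure D3:**
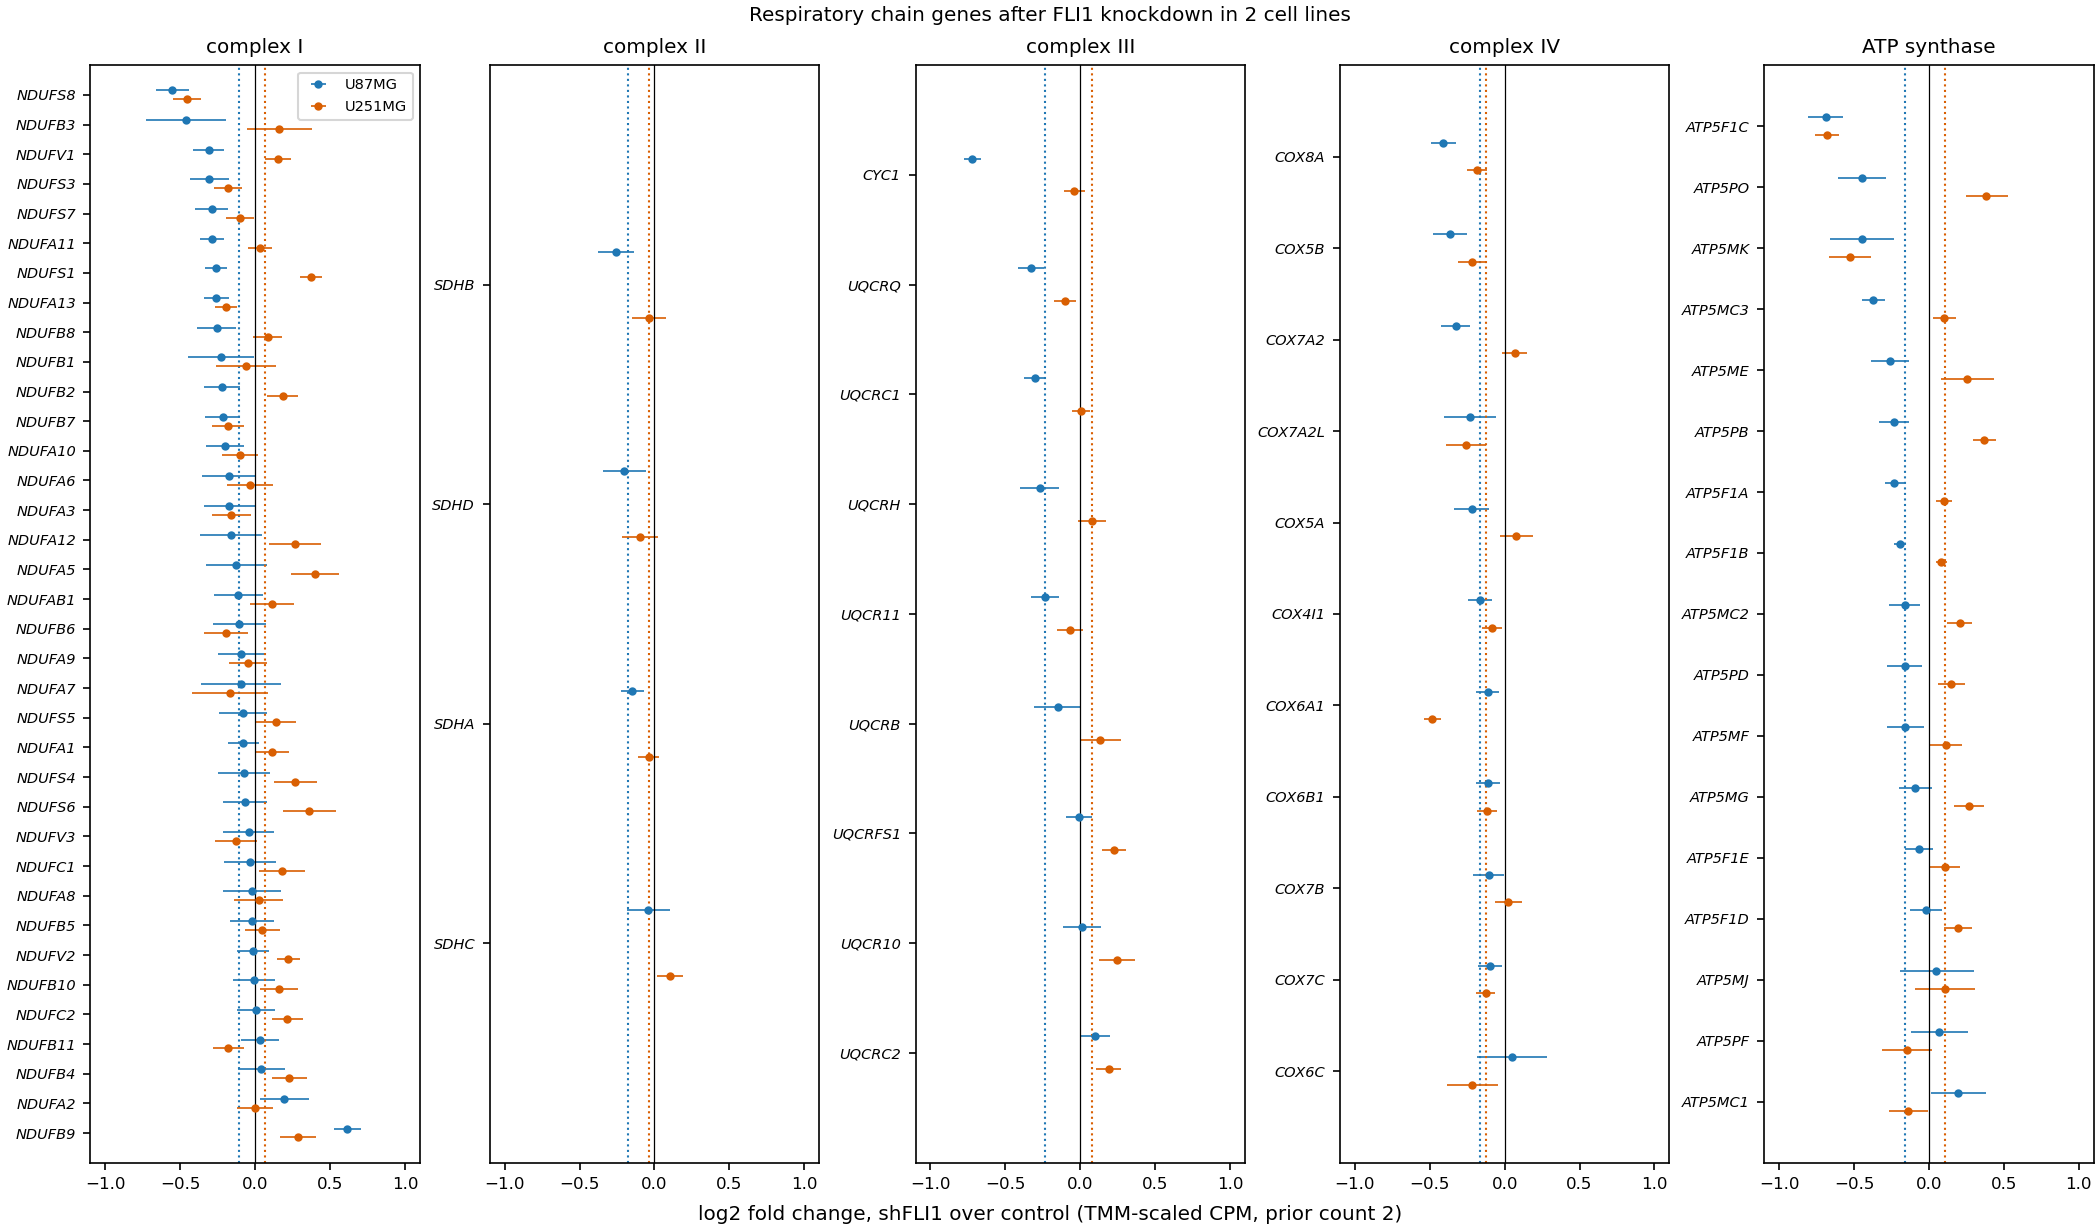
Log2 fold change of shFLI1 over control for each respiratory chain gene in U87MG and in U251MG, by complex, with bars for the 95% counting interval and dotted lines at the median of each complex in each line. Read-through genes and genes under 10 counts are not drawn. In U87MG most points lie left of 0, in U251MG the points of complexes I and III and of ATP synthase lie on both sides, and those of complex IV lie mostly left of 0 in both lines.

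By complex, the medians for U87MG were -0.11 for complex I (38 genes), -0.17 for complex II (4), -0.24 for complex III (9), -0.16 for complex IV (11) and -0.16 for ATP synthase (18). In U251MG they were 0.07, -0.04, 0.08, -0.13 and 0.11 in the same order. With total counts the U87MG median of complex I was 0.05 and those of complex IV and ATP synthase were near 0, and with FPKM that of complex III was near 0. Taken relative to the median of all genes under the same processing, each complex stayed below it in U87MG over the alternatives, by medians between -0.30 and -0.13. Complex IV was also below it in U251MG, by -0.17 to -0.12, as was complex II, by -0.08 to -0.02. With the trend over transcript length and GC content removed, the complex II median itself was 0.02 in U251MG. That value is not a distance, since no median of all genes was taken under this setting. The median of all genes includes genes with few counts. Against the genes with at least 100 counts in every library, with medians of -0.015 and -0.006, these distances are smaller. In the reported scaling, 10 of the 11 counting intervals of complex IV lay wholly below 0 in U87MG and 8 of 11 in U251MG, and none lay wholly above 0 in either. Its summed CPM fell, as a description of these libraries, by 12.7% in U87MG and 10.9% in U251MG. Without *COX6A1* it fell by 13.6 and 6.52%. No gene of complex IV passed the test over both lines, and none did so between the lines. *COXFA4*, a complex IV subunit whose symbol falls outside the prefixes used, is in none of these medians, sums or interval counts. It had 162 and 129 CPM in U87MG control and shFLI1 and 137 and 176 in U251MG. Its log2 fold changes were -0.32 (-0.41 to -0.24) and 0.35 (0.28 to 0.42), so in U251MG its interval lay wholly above 0.

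Among the complex IV genes, *COX8A*, a small subunit, had 179 and 135 CPM in U87MG control and shFLI1 and 160 and 141 in U251MG, and *COX5B*, a zinc-binding subunit, had 90.3, 70.2, 88.3 and 76.1. Both knockdown libraries were below both controls for each, but neither gene passed the test over both lines (edgeR adjusted p = 0.360 for *COX8A* and 0.350 for *COX5B*). *COX4I1*, *COX6B1* and *COX7A2L* separated in the same way. How many of all genes did so was not counted. *COX6A1* had 186 and 172 CPM in U87MG and 270 and 193 in U251MG, and its log2 fold change of -0.48 in U251MG was the lowest of that complex in that line. *COX4I1*, the largest nuclear subunit, had 177 and 158 CPM in U87MG and 170 and 160 in U251MG, with log2 fold changes of -0.16 and -0.08. *COX5A* had -0.22 in U87MG and 0.08 in U251MG, the latter with an interval that included 0.

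The genes of ATP synthase had values on both sides of 0. In U87MG 11 of its 18 intervals lay wholly below 0 and 1 above, and in U251MG 3 lay below and 12 above. Of the 13 respiratory chain genes whose intervals were on opposite sides of 0 in the lines, 10 were of ATP synthase and 3 of complex I, and 12 of the 13 were lower in U87MG and higher in U251MG. How many of all genes had such intervals was not counted. By sign alone, 39 of the 80 genes were lower in U87MG and higher in U251MG, and 5 the reverse. For 9772 genes with at least 100 counts in every library these were 1799 and 1679. *ATP5F1B* had 680.5 and 596 CPM in U87MG control and shFLI1 and 598 and 633 in U251MG. *ATP5PO*, which ties the head to the outer stalk, had 45.9 and 33.7 CPM in U87MG and 33.9 and 44.3 in U251MG, the widest such contrast (log2 fold changes -0.45 and 0.38). In complex I, *NDUFS1*, the largest iron-sulfur subunit, had 197 and 164 CPM in U87MG and 132 and 170 in U251MG, and *NDUFV1*, the FMN-carrying subunit that accepts electrons from NADH, had 105, 84.6, 89.2 and 99.1. With 4 libraries the difference between the lines' responses has no residual degree of freedom, so it was not tested.

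In complex III, *CYC1* weighed on the sum. The summed CPM of complex III fell by 19.3% in U87MG, and without *CYC1* by 10.8%. *CYC1* had 396 and 240 CPM in U87MG control and shFLI1 and 151 and 147 in U251MG. It was high in the U87MG control, intermediate in the U87MG knockdown and low in both U251MG libraries, with log2 fold changes of -0.72 (-0.78 to -0.66) and -0.04 (-0.11 to 0.03) and an edgeR adjusted p of 0.378 over both lines. *UQCRC1*, a core protein, had -0.30 in U87MG and 0.005 in U251MG, whereas *UQCRFS1*, the Rieske iron-sulfur protein, had -0.01 and 0.23. In complex II the log2 fold changes were -0.15 and -0.04 for *SDHA*, -0.26 and -0.04 for *SDHB*, -0.04 and 0.10 for *SDHC* and -0.20 and -0.10 for *SDHD*.

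More of these genes were called between the lines than between the arms. Over both arms, 4 genes were higher in U251MG and 6 were lower, 10 of 80 in all, beside 17.7% of all genes called (11.4% higher and 6.22% lower), in edgeR's quasi-likelihood test with the arm as a block. The 10 members are below the background share, and the median difference by complex, taken as the mean of the difference in each arm, was near 0, from -0.09 in complexes II and III to 0.03 in complex IV. For each of the 10 except *ATP5F1C*, both libraries of one line were above both of the other. The 10 were picked by a test for a line difference, so this separation adds no support. Its share over all genes was not counted.

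Higher in U251MG was *SDHC*, with 54.5 and 53.0 CPM in U87MG control and shFLI1 and 96.1 and 103 in U251MG (log2 difference 0.89, edgeR adjusted p = 0.00548). *ATP5MK* (0.66, edgeR adjusted p = 0.0209) and *ATP5F1C* (0.53, edgeR adjusted p = 0.0313) were higher as well, and for *ATP5F1C* the U87MG control at 92.8 CPM was above the U251MG knockdown at 83.4.

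Lower in U251MG by the largest amounts were *NDUFB9* (-1.43, edgeR adjusted p = 0.00114), with 112 and 172 CPM in U87MG and 46.8 and 57.0 in U251MG, and *ATP5ME* (-1.34, edgeR adjusted p = 0.00277), with 69.0, 57.6, 22.7 and 27.1 CPM. *CYC1* was lower by 1.05 on the log2 scale (log2 difference -1.05, edgeR adjusted p = 0.0108). *NDUFS6*, a zinc-carrying subunit of complex I, had 52.6 and 50.1 CPM in U87MG and 22.2 and 28.5 in U251MG (-1.02, edgeR adjusted p = 0.00648). *NDUFA1*, an X-linked subunit needed for complex I assembly, had 107, 102, 52.3 and 56.6 CPM (-0.94, edgeR adjusted p = 0.00471), and *ATP5F1E* had 126, 120, 71.8 and 77.2 (-0.73, edgeR adjusted p = 0.0117). The strand used in counting is not stated, so reads of overlapping genes may be mixed for some of them. Exons of *ATP5ME* share 571 bases with *MYL5*, those of *ATP5F1E* 1180 with *TUBB1* and those of *ATP5MK* 25 with *TAF5*. Those of *NDUFB9* share 2001 bases with *MTSS1* and 187 with *TATDN1*. *TUBB1* had at most 2 counts, *MTSS1* at most 5, *MYL5* 87 to 197, *TAF5* 128 to 440 and *TATDN1* 245 to 629.

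The members called between the lines were compared with the genes that lie next to them on the chromosome. This comparison was chosen after the values had been seen. For each of 78 members with at least 100 counts in every library, the median log2 difference of up to 25 such genes on either side in RefSeq order was taken. For 10 of the 10 genes called between the lines, the neighbours had the sign of the gene itself, as they did for 52 of all 78. The same share over all genes, or over all genes called between the lines, was not counted. The 50 neighbours of *NDUFB9* had a median of -0.84 with 2 higher in U251MG, and the 50 of *CYC1* had -0.65 with 0 higher. The neighbours of *SDHC* had a median of 0.51, with 47 of 50 higher. *CYC1* and *NDUFB9* are on the same chromosome. *ATP5ME* (-0.57, 2 of 28 higher), *ATP5F1C* (0.52, 44 of 47 higher), *ATP5F1E* (-0.47, 11 of 50), *ATP5MK* (0.46, 47 of 50) and *NDUFA1* (-0.35, 9 of 50) followed, and *NDUFS6* had the smallest neighbour median (-0.08, 13 of 37). Over 8541 genes with 50 neighbours, the neighbour median lay between -0.43 at the 5th percentile and 0.49 at the 95th. Across the 78 members the difference of the gene and the median of its neighbours had a Pearson r of 0.82, against 0.49 across all such genes. For the knockdown the same r was 0.48 in U87MG (0.32 across all such genes) and 0.08 in U251MG (0.15). These points share the 4 libraries and, in part, the same neighbours, and genes are not independent replicates.

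**Figure D4:**
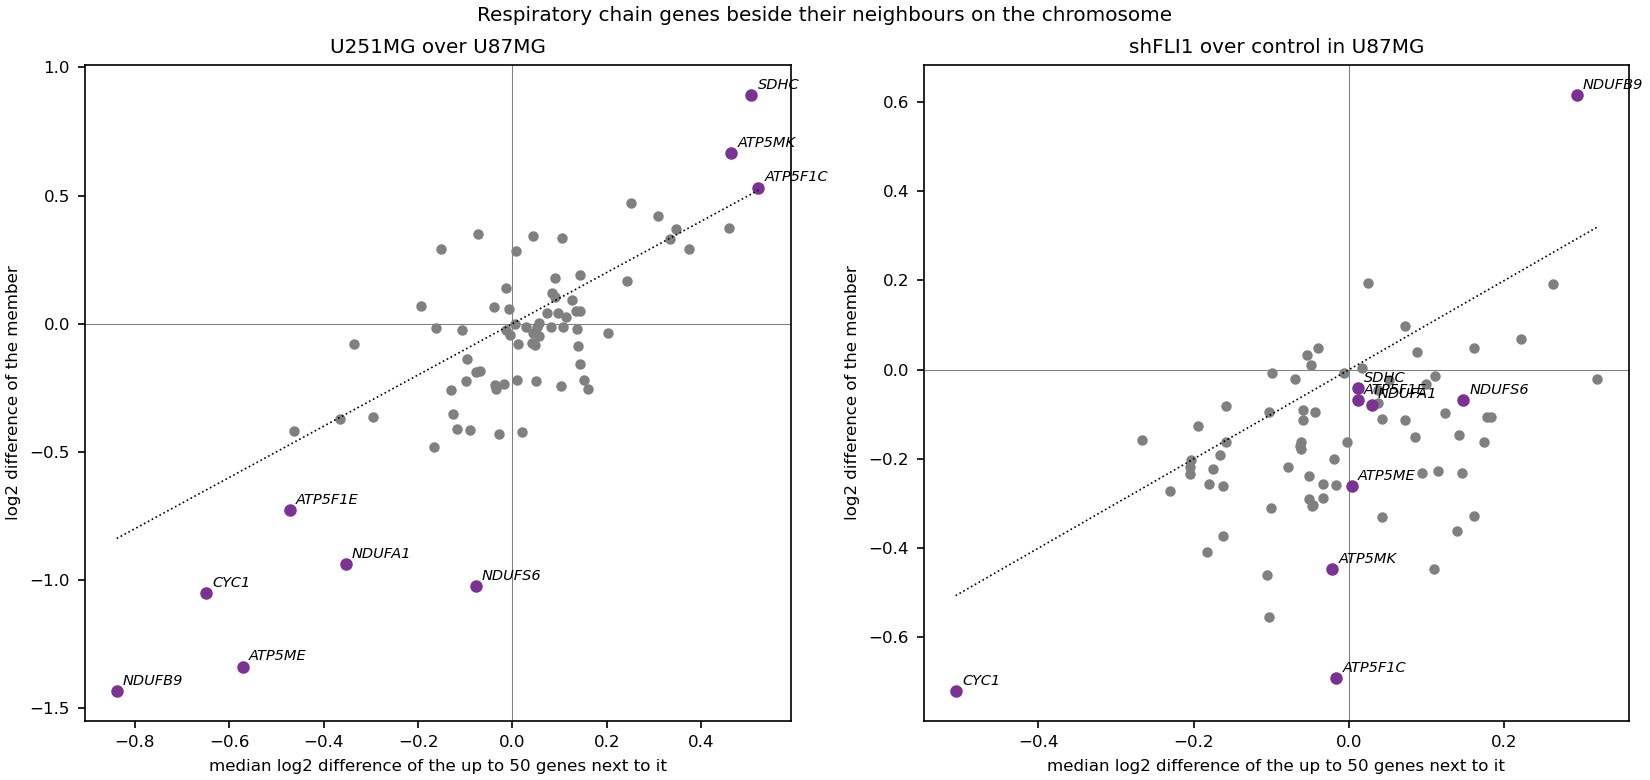
Log2 difference of each respiratory chain gene plotted against the median of the up to 50 genes next to it on the chromosome, for U251MG over U87MG on the left and for the knockdown in U87MG on the right. Coloured points are genes called in a test, the dotted line marks equal values, and between the lines the points rise together from *NDUFB9* and *CYC1* at the lower left to *SDHC* at the upper right.

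The same held for part of the knockdown values in U87MG. All 50 neighbours of *CYC1* were lower with the knockdown in U87MG, with a median of -0.51, close to the lowest neighbour median of any of the 8541 genes (-0.52), and *CYC1* itself had -0.72. In U251MG those 50 genes had a median of -0.15. An unbroken run of at least 53 genes around *CYC1* was lower in U87MG (median -0.50 over 53 of them), and 37 of the same 53 were lower in U251MG (median -0.14). Further along towards *NDUFB9*, 35 genes had a median of 0.32 in U87MG, with 4 lower. The neighbours of *NDUFB9* had a median of 0.29 in U87MG with 40 of 50 higher, and -0.07 in U251MG. Whether the fold changes of *CYC1* and *NDUFB9* belong to *FLI1* or to the stretch of chromosome they lie in cannot be told apart within 1 library per arm.

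**Figure D5:**
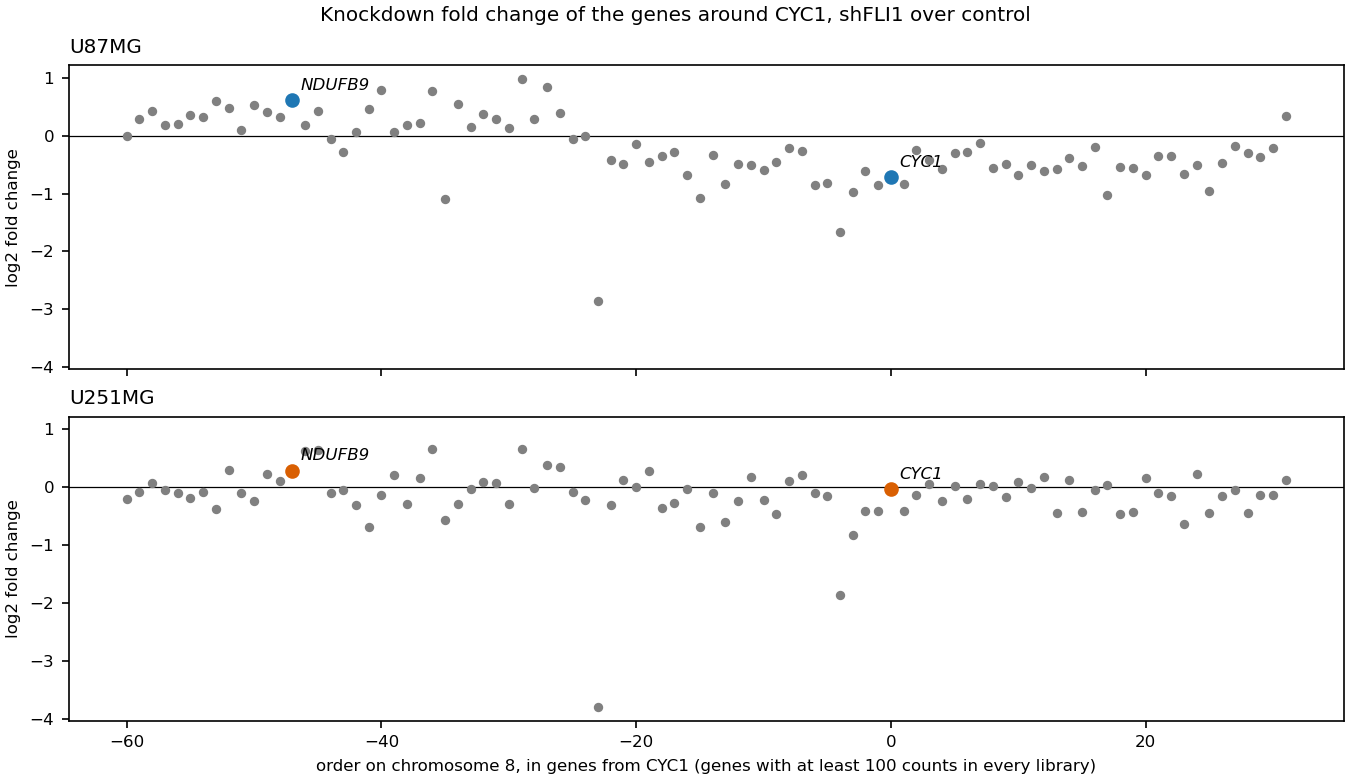
Log2 fold change of shFLI1 over control in U87MG and in U251MG for genes in chromosome order around *CYC1* on chromosome 8, counted in genes from *CYC1*. In U87MG an unbroken run of at least 53 genes around *CYC1* lies below 0 and the genes on the *NDUFB9* side lie mostly above 0, while in U251MG the same genes lie nearer to 0.

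The fall of *ATP5F1C* was not shared by its neighbours, whose medians were -0.02 in U87MG and 0.00 in U251MG. The neighbours of *ATP5MK* had medians of -0.02 and -0.01. Over the 78 members, the fold change less that of the neighbours had a median of -0.13 in U87MG, with 65 of 78 below their neighbours, and 0.06 in U251MG, with 33 below. The complex IV genes of this set lay below their neighbours in both lines, by medians of -0.22 (11 of 11 genes) and -0.14 (10 of 11). *COXFA4*, with a log2 fold change of 0.35 in U251MG, is not among them. The share of all genes that lay below their neighbours was not counted.

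Other gene lists of mitochondrial function give these values a frame. Of 50 assembly factors fitted, 1 was lower after knockdown over both lines and none was higher. It was *SCO2*, a copper chaperone of complex IV, with 37.4 and 22.9 CPM in U87MG control and shFLI1 and 33.9 and 17.8 in U251MG (log2 fold change -0.82, edgeR adjusted p = 0.0428). Both knockdown libraries were below both controls. *SCO2* was picked by this test, and the share of all genes with such a separation was not counted. Exons of *SCO2* share 361 bases with *TYMP* on the same strand and 857 with *NCAPH2* on the other. Counts were 47, 33, 51 and 41 for *TYMP* against 428, 509, 605 and 534 for *SCO2*. None of 14 genes of the TCA cycle, 20 of electron carriers and their regulators, 19 of mitochondrial biogenesis, 77 mitochondrial ribosomal proteins, 81 cytosolic ribosomal proteins and 34 proteasome subunits passed this test. *IDH2*, the mitochondrial NADP-dependent isocitrate dehydrogenase, had 38.5 and 17.3 CPM in U87MG and 51.9 and 35.4 in U251MG (log2 fold changes -1.15 and -0.55, edgeR adjusted p = 0.0657).

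In U87MG the medians of the lists were -0.21 for the TCA cycle (12 of 14 below 0), -0.13 for cytosolic ribosomal proteins (66 of 81 below 0), -0.08 for electron carriers, -0.04 each for assembly factors and mitochondrial ribosomal proteins, 0.01 for the proteasome and 0.06 for biogenesis regulators. In U251MG cytosolic ribosomal proteins had a median of 0.14 with 13 of 81 below 0, the TCA cycle 0.02, and electron carriers 0.11. Low values in U87MG with higher ones in U251MG were thus seen in cytosolic ribosomal proteins as well as in the respiratory chain, while mitochondrial ribosomal proteins had a median of -0.05 in U251MG. Cytosolic ribosomal proteins, like many of the subunits here, are encoded by short and abundant RNAs. With the trend over transcript length and GC content removed, which was added after seeing the data, the U87MG medians moved from -0.16 to -0.28 for complex IV, from -0.11 to -0.20 for complex I, from -0.16 to -0.25 for ATP synthase and from -0.24 to -0.20 for complex III.

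Few shifts between RNA models were shared by both lines. The 80 genes had a median of 4 RNA models, and in 48 of them 1 model took over 90% of the counts in every library. In 4 genes, *NDUFC1*, *UQCR10*, *NDUFA10* and *ATP5MC1*, a model's share moved by more than 3 percentage points in the same direction in both lines. Such shifts were not counted over all genes. Shifts mainly in 1 line are outside this count. A model of *ATP5MF* moved by 10.6 points in U87MG and 1.09 in U251MG. A model of *SDHC* moved by -2.69 and -7.87 points, and 1 of *COX5A* by -1.41 and 6.77, in the same order. In *NDUFC1*, a small complex I subunit, NM_001184990 went from 6.33 to 0% in U87MG and from 13.9 to 3.00% in U251MG, and in *UQCR10*, a small complex III subunit, NM_001003684 went from 20.6 to 25.4% and from 11.4 to 16.0%. The *NDUFC1* model had only 26.5 and 0 estimated counts in U87MG control and shFLI1 and 72.0 and 29.5 in U251MG. Shares of RNA models are estimates, and these had no test. *NDUFA3*, *NDUFA6*, *NDUFS1*, *NDUFS3* and *UQCRC2* had several entries for copies of the same RNA in the table, so their levels may be overstated.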

How the data were processed

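RNA with poly-A tails was sequenced from 4 libraries, grouped by cell line and by the label control or shFLI1. The labels and the methods name different library kits. The authors aligned reads to GRCh38 (GRCh38.p13 in the submitters' processing notes) with HISAT2 and used StringTie. They deposited 1 table of 216388 RNAs with estimated counts and FPKM per RNA and library. The program that made the counts and its strand setting are not given in the sources used here. Another 10 value columns (TPM and means of the arms) were not used. Totals of the estimated counts over the 185042 linear RNAs were 12229780, 21250153, 18108612 and 28891055. The 31346 circular RNAs were left out.

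Counts of linear RNAs were summed by gene and rounded. A symbol was found for 23775 of the 24411 Entrez identifiers. Libraries were scaled by TMM (edgeR 4.0.16, R 4.3.3), genes kept by filterByExpr were tested with the quasi-likelihood test at an adjusted p of 0.05, and fold changes within a line used a prior count of 2 and a 95% Clopper-Pearson interval. Levels used deposited FPKM summed by gene. Alternatives used DESeq2 1.42.0 and limma 3.58.1, with pseudocounts of 1 and 0.1 for log2(FPKM). Tables and figures were made with Python 3.11.15, pandas 2.3.3 and matplotlib 3.10.9.

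The cell line paired the libraries and was the block of the knockdown test, with 1 residual degree of freedom. The p-values measure only the spread between these samples, which are not stated to be separate cultures beyond the lines. In simulated tables of 16401 genes with 200 changed 4-fold, all 200 (100%) were called for the knockdown and for the cell line, with 18 and 5 further genes called without a change. The 200 were drawn from genes with a mean of at least 100 counts, and every gene had the same set spread. No member changed by more than 2-fold with the knockdown, so this recovery says nothing about changes as small as those.

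One gene called between the lines is not reported here by name, though it is in the counts and medians, and it is left out of the figures. Named were every other gene called in either test, genes past 2-fold in a line, the highest and lowest level in each complex, paralogs and tissue forms, complex II and 10 defining subunits. Others were named after their values were seen: *NDUFS8*, *COX5B*, *COX8A*, *ATP5PO*, *ATP5F1D*, the genes with RNA-model shifts, *SCO2* and *IDH2*. The members and lists were chosen with earlier results of these data known.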

Additional observations from a re-analysis of the deposited data

Results flagged for a closer look

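Under the same knockdown the lines gave values on opposite sides of 0 for several groups, and these differences were not tested because 4 libraries leave no residual degree of freedom for them. The median log2 fold change of the 80 respiratory chain genes was -0.16 in U87MG and 0.059 in U251MG. It was -0.16 and 0.11 for ATP synthase, -0.11 and 0.068 for complex I, and -0.24 and 0.076 for complex III. With total counts in place of TMM the U87MG medians were -0.0014, 0.052 and -0.077 for these 3 complexes. The shFLI1 library was deeper than its control in both lines, and in U87MG the 10 most abundant genes took 18.6% of counts in the control and 13.2% in the knockdown. With the 10 most abundant genes over the libraries left out of the scaling, the U87MG medians were -0.16, -0.11 and -0.24 for ATP synthase, complex I and complex III. With the deeper library of each line thinned they were -0.23, -0.20 and -0.27, and in U251MG 0.12, 0.11 and 0.047. Beyond these alternatives, the part of depth and of abundant genes in the result was not tested.

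Single genes with counting intervals on opposite sides of 0 are given for U87MG first and U251MG second. The share of all genes with such intervals was not counted. The log2 fold changes were -0.23 and 0.10 for *ATP5F1A*, -0.19 and 0.083 for *ATP5F1B*, -0.16 and 0.20 for *ATP5MC2*, -0.37 and 0.10 for *ATP5MC3*, -0.26 and 0.25 for *ATP5ME*, -0.26 and 0.37 for *NDUFS1* and -0.31 and 0.15 for *NDUFV1*. *ATP5MC1* went the other way, with 0.19 and -0.14.

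Among 3 noncoding RNAs beside respiratory chain genes, which no comparison above used, each of 2 had a counting interval above 0 in 1 line. *NDUFA6-DT*, a divergent transcript at *NDUFA6*, had 51 and 143 counts in U87MG control and shFLI1 (log2 fold change 0.52) and 59 and 118 in U251MG (0.25, interval -0.21 to 0.73). *NDUFV2-AS1*, an antisense RNA at *NDUFV2*, had 16 and 53 counts in U251MG control and shFLI1 (log2 fold change 0.91) and 14 and 42 in U87MG (0.59, interval -0.27 to 1.61). *UQCRFS1-DT* had 6 and 6 counts in U87MG (-0.76) and 5 and 16 in U251MG (0.74), with intervals that included 0. Without a stated counting strand, reads of an antisense RNA and of its partner cannot be told apart.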

How the results depend on the processing

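Of 164 counts and medians recomputed under alternatives, 142 stayed within the range of the reported value. Among 120 medians by complex under alternatives, 12 had another sign than the reported one, namely complex II in U251MG (0.0049 to 0.036 in 5 of them, against -0.038), complex I in U87MG (0.0076 to 0.052), complex III in U87MG and the line difference of complex IV (-0.027 and -0.044, against 0.027). No library could be left out, since 3 libraries leave no residual degree of freedom for the tests. The 1 member called for the knockdown became 0 with total counts (364 of all genes called), with log2(FPKM + 1) in limma (0 of all genes) and log2(FPKM + 0.1) (31), and 4 members had an unadjusted p under 0.05 in each. Without the replicate block for cell line or arm, 0 members were called for the knockdown (0 of all genes, with 1 member and 712 genes at an unadjusted p under 0.05) and 4 between the lines (579 of all genes). Over all genes the knockdown calls went from 379 to 403 with DESeq2 and 1303 with genes of any count kept, and those between the lines from 2972 to 1813 and 4032, while members between the lines numbered 6 with log2(FPKM + 1), 7 with DESeq2 and 14 with TMM over filtered genes. Past 1.5-fold there were 3 members in U87MG and 1 in U251MG. With total counts the U87MG medians were -0.0014 for ATP synthase, 0.052 for complex I, -0.013 for complex II, -0.077 for complex III and -0.0022 for complex IV. With log2(FPKM + 1) they were -0.039 for complex II, 0.0046 for complex III and -0.042 for complex IV, and 0.18 for complex III in U251MG, and with log2(FPKM + 0.1) they were -0.040, 0.0054, -0.042 and 0.21. With length and GC trends removed the complex IV median in U87MG was -0.28. Of 858 fold changes of 36 named members under alternatives, 35 had another sign and 105 left the counting interval. The cause of these shifts was not tested. Depth limits mainly *ATP5MGL*, *UQCRHL* and *COX6B2*: 3 counts correspond to 0.26 CPM in the shallowest library.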
